A study of Sus scrofa with 12 samples.

Results

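Transcripts of the renin-angiotensin system, the endothelin receptors and the corticosteroid receptors were examined in pig hearts after ischemia-reperfusion injury. The 9 genes were chosen by their names, with earlier results of these data known, and no measured value enters the rule: AGT, ACE, AGTR1, AGTR2, EDNRA, EDNRB, NR3C1, NR3C2 and HSD11B1. All 9 were found by gene identifier among the 35682 genes with deposited counts, and 8 of them passed the filter on low counts that left 13844 genes for testing. AGTR2 was the member under the filter.

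The animals were young female Yorkshire pigs in which the left anterior descending (LAD) coronary artery was closed by a balloon for 60 min and then reopened. From day 9 all animals were given prednisolone at 20 mg a day, together with tacrolimus at 0.75 mg/kg and mycophenolate mofetil at 500 mg a day, so a synthetic ligand of the glucocorticoid receptor was present in every animal of both groups compared. On day 14 either vascular organoids of human endothelial progenitor and smooth muscle cells, held with fibrin sealant, or fibrin glue alone were laid on the heart, and the hearts were taken some weeks later. RNA came from the border zone, next to the infarct, and from the remote zone, the posterior wall, of the same 6 animals, both cut at mid ventricular level, which gave 6 border zone and 6 remote zone libraries. The region of each library was taken from its title, because the extraction protocol in the labels speaks of border zone tissue for every sample. The arm of each animal is not in the sample labels and was not used, and per the study's methods each region holds animals of both arms. No uninjured heart was analysed here, and the remote zone was the only control tissue.

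In this hormone system angiotensinogen (AGT) is the precursor of angiotensin I, and angiotensin-converting enzyme (ACE) makes angiotensin II from it. Angiotensin II acts on vascular tone, fibroblasts and myocytes mainly through AGTR1, while AGTR2 is often described as opposing it. Aldosterone and cortisol both bind the mineralocorticoid receptor (NR3C2), cortisol and its analogues bind the glucocorticoid receptor (NR3C1), HSD11B1 regenerates active cortisol within tissue, and HSD11B2 inactivates it. Endothelin-1, a vasoconstrictor peptide, signals through EDNRA on muscle cells and fibroblasts and through EDNRB, which is best known on endothelium.

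Library totals ranged from 15130210 to 30526110 counts in the border zone and from 20091415 to 31618680 in the remote zone. Animal 3622 had the smallest library in the border zone, and this library listed 28024 genes where the other 11 libraries listed 16932 to 20148. Without this library the log2 fold changes of AGT and EDNRA, given below, were 0.26 and -0.23. Those of NR3C1 and NR3C2 were 0.20 and -0.07. Levels are in CPM, counts divided by the TMM-scaled library total and multiplied by 1e6, so that 3 counts stood for 0.0882 to 0.200 CPM depending on the library. All values of 8 of the 9 genes were above this limit. The border zone libraries held more summed CPM of the 9 fibroblast and matrix markers in all 6 animals, with a range of 3019 to 66621 against 1035 to 2581 in the remote zone, and 7 of these 9 genes passed by edgeR with higher levels, beside 2.07% of all genes. With the replicate block 1 of the 9, POSTN (adjusted p = 0.0410), passed, beside 0.296%. The 6 cardiomyocyte markers measured summed to between 7889 and 47234 CPM in the border zone and to between 36238 and 65342 in the remote zone, with the border zone lower in each animal, and 0 of the 6 passed the test (by unadjusted p under 0.05, 1, and by DESeq2, 1). No marker of these lists was at 0 in all libraries. In bulk tissue, fewer cells of a type and less RNA per cell cannot be told apart. The part of cell makeup in any value below was not tested.

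None of the 8 members tested differed between the regions in the quasi-likelihood test of edgeR, with p adjusted over all genes by the Benjamini-Hochberg method. The count was 0 of 8 at an adjusted p under 0.05, beside a background of 2.07% of all genes tested (287 genes, 285 of them higher in the border zone and 2 lower). At an unadjusted p under 0.05 the count was also 0 of 8, where 24.7% of all genes passed (2348 higher and 1077 lower). By the DESeq2 Wald test it was 0 of 8 against 10.2% of genes, and with a replicate block for the animal it was 0 of 8 against 0.296%. The log2 fold changes of border zone over remote zone lay between -0.41 and 0.41, 5 above 0 and 3 below, with a median of 0.10 beside 0.04 over all genes tested. These counts do not show that the members were equal in both regions, since the 95% intervals of the single genes, given below, were wide for several of them.

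**Figure D1:**
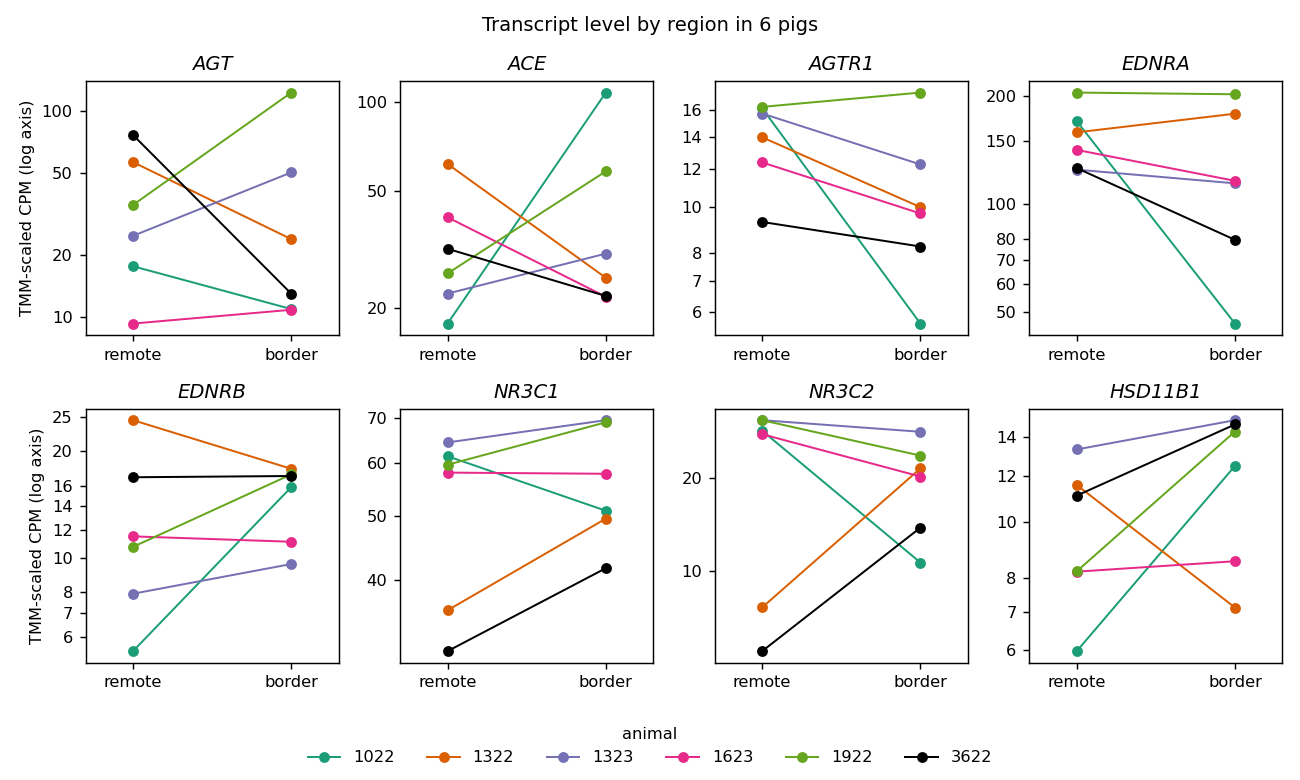
TMM-scaled CPM on log axes, each panel with its own range, for the 8 members tested, with 1 line per animal joining its remote zone library to its border zone library. Lines cross in every panel and the ranges of the regions overlap for each gene. Over both regions together AGT spans 9.27 to 123.2 CPM and NR3C1 spans 31.3 to 69.6 CPM.

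The members stood at different heights when CPM was divided by the length of the annotated exons. EDNRA led, with a median of 34.1 CPM per kb over the 12 libraries. It was followed by AGT (10.7 CPM per kb), NR3C1 (6.91), ACE (6.43), HSD11B1 (6.19), AGTR1 (4.96), NR3C2 (3.35) and EDNRB (2.92). The step from EDNRA to AGT was seen in 10 of the 12 libraries. Each of AGT, NR3C1, ACE and HSD11B1 was above the next in this order in only 9, 7, 9 and 8 libraries. NR3C2 was above EDNRB in 6, so these neighbours were not separated beyond their spread. AGTR1 was above NR3C2 in all 12 libraries on this scale.

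The transcript of AGT, the peptide precursor of the system, had the widest range over the 12 libraries among the members. AGT lies at chr14:59643030-59656835 on the plus strand (Sscrofa11.1). Its level in the border zone was 10.8 CPM at the lowest, 18.4 at the median and 123.2 at the highest. The remote zone libraries gave 9.27, 29.9 and 76.6 CPM. The border zone libraries of animals 1922 (123.2 CPM) and 1323 (50.4 CPM) and the remote zone libraries of animals 3622 (76.6 CPM) and 1322 (56.5 CPM) were the high ones, and the regions overlapped over nearly their whole range.

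The 13.3-fold range of AGT over the 12 libraries went with standard deviations of 1.42 (border zone) and 1.11 (remote zone) in log2 CPM, where the median gene tested had 0.47 and 0.38. In the remote zone alone NR3C2 varied as much, with an SD of 1.14. For AGT the log2 fold change was 0.08 (standard error, SE, 0.65, 95% interval -1.30 to 1.47, adjusted p = 0.954 by edgeR). Within animals AGT was higher in the border zone in 3 of 6, by 1.81 in log2 CPM in animal 1922 and by 1.02 in animal 1323, and it was lower by 2.56 in animal 3622. The direction of its mean turned with single animals, to -0.76 without animal 1922 and -0.18 without animal 1323, and to -0.22 with the replicate block. It was 0.60 without animal 3622 and 0.83 without the remote zone libraries of animals 1322 and 3622, with adjusted p from 0.467 to 0.987 over all alternatives. AGT is made in liver and adipose tissue as well as in heart. The adipocyte markers summed to 39.9 and 27.7 CPM in the border zone libraries of animals 1323 and 1922, the highest of the 12, but to 1.60 CPM in the remote zone library of animal 3622, which had the second highest AGT level. The part of adipose tissue in these levels was not tested.

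ACE, the converting enzyme of endothelium and activated macrophages and fibroblasts, had a mean difference whose direction turned with 1 animal. ACE lies at chr12:15394487-15414609 on the minus strand, and its exons overlap an uncharacterised gene, LOC110256165, on the other strand, whose reads cannot be told apart in nondirectional libraries. The level was 21.9, 28.0 and 107.9 CPM (lowest, median, highest) in the border zone. Remote zone levels were 17.7, 29.0 and 61.8 CPM. Animal 1022 gave both the highest border zone level, 107.9 CPM, and the lowest remote zone level, 17.7 CPM.

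The log2 fold change of ACE was 0.41 (SE 0.42, 95% interval -0.50 to 1.32, adjusted p = 0.579 by edgeR), and it was -0.21 without animal 1022 and -0.08 without the border zone library of that animal alone. ACE was higher in the border zone in 3 of 6 animals, by 2.60 in log2 CPM in animal 1022, 1.15 in animal 1922 and 0.45 in animal 1323. The same border zone library of animal 1022 had the highest summed level of the 7 macrophage markers (1449 CPM, with a border zone median of 285) and of the fibroblast and matrix markers (66621 CPM), and the lowest of the cardiomyocyte markers (7889 CPM). The endothelial markers did not stand apart by region, at 310 to 470 CPM in the border zone and 223 to 502 CPM in the remote zone. Animal 1022 had the highest endothelial sum of the border zone and the lowest of the remote zone. The endothelial sum was higher in the border zone in 3 of 6 animals, the same 3 as for ACE. How far these cells contributed to the ACE level was not tested.

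AGTR1, the main receptor for angiotensin II, had the lowest log2 fold change of the members. It lies at chr13:88934873-88980317 on the plus strand. The border zone libraries held 5.68, 9.83 and 17.4 CPM (lowest, median, highest). The remote zone libraries held 9.29, 14.9 and 16.2 CPM. The lowest level of all 12 libraries was that of the border zone of animal 1022 and the highest that of the border zone of animal 1922, so the border zone range enclosed that of the remote zone.

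The log2 fold change of AGTR1 was -0.41 (SE 0.24, 95% interval -0.92 to 0.11, adjusted p = 0.310 by edgeR). It was lower in the border zone in 5 of 6 animals, with differences of -1.49 in animal 1022 and between -0.48 and -0.17 in log2 CPM in the 4 other animals, and 0.10 in animal 1922. Its value stayed below 0 in every alternative, from -0.56 to -0.17, with adjusted p from 0.176 to 0.709. Without animal 1022 it was -0.23. With the replicate block it was -0.46 (adjusted p = 0.176).

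AGTR2, the second angiotensin II receptor, was at the limit of detection. The gene lies at chrX:95267709-95272237 on the minus strand. It had 4 counts in all 12 libraries together, 2 in the border zone of animal 1922 and 1 each in the remote zone of animals 1022 and 1922. No level exceeded 0.0971 CPM, and the 9 other libraries were at 0 counts, which allows up to 0.200 CPM at 3 counts. Because these counts fell in only 2 animals, no test of the regions could be informative. A difference between them was not detectable at this depth, and no ratio of AGTR1 to AGTR2 was computed.

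EDNRA, the endothelin receptor of vascular muscle and fibroblasts, had the highest level per kb of the group. The gene lies at chr8:81210750-81279053 on the minus strand, 541.7 kb from NR3C2 on the same chromosome. Its levels were 46.6, 115.3 and 202.5 CPM (lowest, median, highest) in the border zone. Remote zone levels were 124.9, 150.2 and 204.8 CPM. The border zone libraries of animals 1022 (46.6 CPM) and 3622 (79.6 CPM) were the lowest of the 12, and animal 1922 was highest in both regions.

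The log2 fold change of EDNRA was -0.33 (SE 0.30, 95% interval -0.97 to 0.31, adjusted p = 0.519 by edgeR). Animals 1022 and 3622 differed by -1.87 and -0.66 in log2 CPM, and the 4 other animals lay between -0.29 and 0.17. EDNRA was lower in the border zone in 5 of 6 animals, and without animal 1022 its log2 fold change was -0.13. The summed level of the 7 smooth muscle and pericyte markers, of which RGS5 also stands in the receptor signalling list, had another order, with 492 to 2942 CPM in the border zone and 214 to 594 CPM in the remote zone, and exceeded the remote zone in 5 of 6 animals. Of these 7 markers RGS5 was the 1 with a log2 fold change below 0, at -0.22 (adjusted p = 0.632 by edgeR). EDNRA varied by an SD of 0.78 in log2 CPM across the border zone and of 0.27 across the remote zone.

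EDNRB, the endothelin receptor that on endothelium couples to vasodilator release, had the opposite order to EDNRA in animal 1022. EDNRB lies at chr11:50073300-50102879 on the minus strand. It reached 9.63, 16.5 and 17.9 CPM (lowest, median, highest) in the border zone. The corresponding remote zone levels were 5.46, 11.14 and 24.5 CPM. The lowest level was that of the remote zone of animal 1022 and the highest that of the remote zone of animal 1322, so here the remote zone range enclosed that of the border zone.

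The log2 fold change of EDNRB was 0.20 (SE 0.31, 95% interval -0.47 to 0.88, adjusted p = 0.724 by edgeR), and it was higher in the border zone in 4 of 6 animals. It was 0.02 without animal 1022. Without the remote zone libraries of animals 1322 and 3622, an alternative chosen after seeing the data, it was 0.72 (adjusted p = 0.180).

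**Figure D2:**
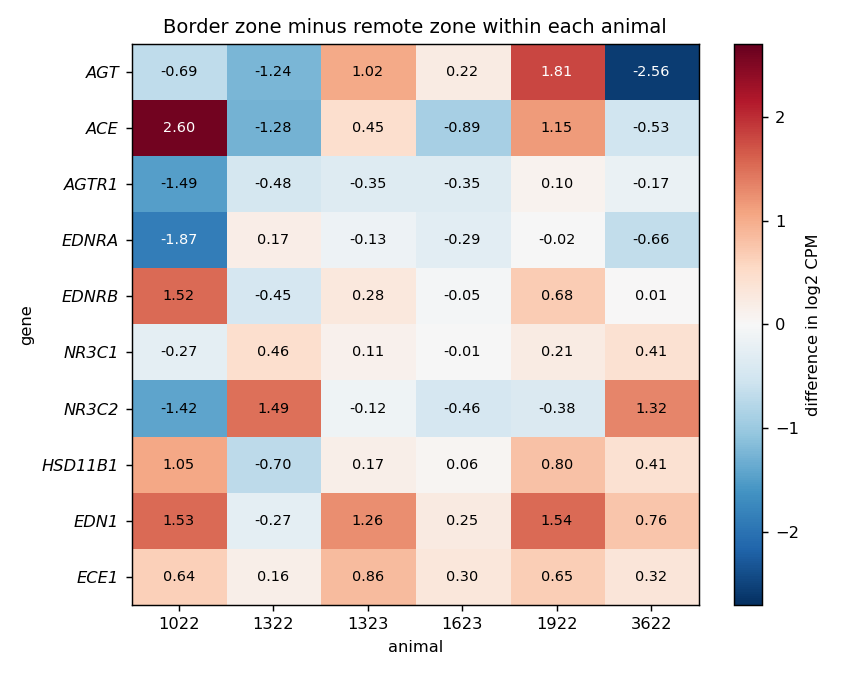
Difference in log2 CPM of the border zone library minus the remote zone library of each animal (columns) for the 8 members tested and for EDN1 and ECE1 (rows), with red for higher in the border zone. Animal 1022 holds the largest value of 5 of these 10 genes by size, among them 2.60 for ACE and -1.87 for EDNRA, while ECE1 is above 0 in all 6 columns.

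Since a ratio of 2 genes within 1 library does not depend on its scaling, the balance of the receptors was compared directly. The ratio of EDNRA to EDNRB was 2.93, 10.2 and 11.8 (lowest, median, highest) in the border zone and 6.45, 13.8 and 30.7 in the remote zone. It was lower in the border zone in 5 of 6 animals, by 0.80 ± 1.36 (SD) on the log2 scale (exact permutation test of sign changes over 6 animals, two-sided p = 0.125, adjusted p = 0.5 over the 4 ratios computed). The smallest p that 6 animals allow is 0.03125. Animal 1022 alone differed by -3.39, and without it the mean difference was -0.28. The ranges of the regions overlapped.

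The peptide and the enzyme upstream of the endothelin receptors belonged to the list of endothelin peptides and converting enzymes, of which 2 of 5 genes could be tested. EDN1, the gene of endothelin-1, was at 2.87 to 5.62 CPM in the border zone and at 1.35 to 3.49 CPM in the remote zone. ECE1, which cuts the precursor to the active peptide, was at 167.4 to 219.8 CPM in the border zone and at 91.9 to 160.2 CPM in the remote zone, without overlap. EDN1 was higher in the border zone in 5 of 6 animals, and its log2 fold change was 0.84 (SE 0.27, adjusted p = 0.0987 by edgeR).

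ECE1 was higher in 6 of 6 animals, and its log2 fold change was 0.47 (SE 0.16, adjusted p = 0.113 by edgeR). Neither gene passed the threshold, by edgeR or by DESeq2, and both had an unadjusted p under 0.05, as 24.7% of all genes had. EDN2 (10 counts in all) and ECE2 (61 counts) were under the filter.

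NR3C1, the glucocorticoid receptor, was among the steadiest members. It lies at chr2:144822937-144956451 on the minus strand. Its levels were 41.7, 54.3 and 69.6 CPM (lowest, median, highest) in the border zone. The remote zone libraries gave 31.3, 58.8 and 64.4 CPM. The remote zone libraries of animals 3622 (31.3 CPM) and 1322 (36.0 CPM) were the lowest of the 12, and the regions overlapped.

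The 2.22-fold range of NR3C1 was the narrowest of the 8 members tested. Its log2 fold change was 0.12 (SE 0.21, 95% interval -0.32 to 0.57, adjusted p = 0.752 by edgeR), with higher levels in the border zone in 4 of 6 animals. It was -0.12 without the remote zone libraries of animals 1322 and 3622.

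NR3C2, the mineralocorticoid receptor, showed a split within the remote zone. The gene lies at chr8:80303172-80669050 on the plus strand, and an uncharacterised gene on the other strand, LOC110261980, overlaps its exons. In the border zone it was at 10.6, 20.9 and 28.3 CPM (lowest, median, highest). In the remote zone it was at 5.48, 28.2 and 30.9 CPM. Animals 3622 (5.48 CPM) and 1322 (7.61 CPM) had the lowest levels of the 12 libraries, while the 4 other remote zone libraries lay between 27.8 and 30.9 CPM.

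The log2 fold change of NR3C2 was -0.15 (SE 0.40, 95% interval -1.02 to 0.72, adjusted p = 0.851 by edgeR). Within animals it was higher in the border zone of animals 1322 and 3622, by 1.49 and 1.32 in log2 CPM, and lower in the 4 other animals, by 1.42 in animal 1022 and by between 0.12 and 0.46 in the rest. Without the remote zone libraries of animals 1322 and 3622 it was -0.59 (adjusted p = 0.212). Without animal 1022 it was 0.07, with the replicate block 0.04 and with library totals in place of TMM factors 0.03, so its direction was not settled by these libraries.

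The same remote zone libraries stood apart in ways that were not specific to the steroid receptors. Their share of counts on the 13 mitochondrial protein genes was 33.5% (animal 3622) and 21.4% (animal 1322), where the 4 other remote zone libraries had 13.6% to 14.7%. Genes with 6000 bp of exons or more, 2952 of those tested, sat lower there than the 8051 shorter ones. The difference was 0.46 and 0.34 in median log2 deviation, taken from the median of each gene over the 12 libraries. In the 10 other libraries the difference was between -0.06 and 0.23. NR3C1 (8374 bp of exons) and NR3C2 (6757 bp) are the only members past this length. The part of length and RNA quality in their levels was not tested.

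**Figure D3:**
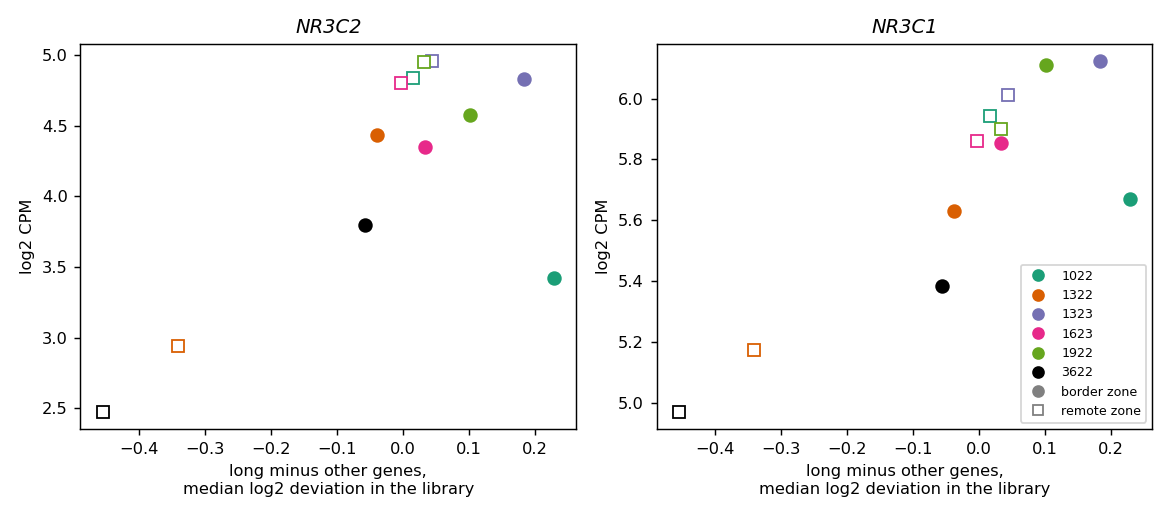
Log2 CPM of NR3C2 and NR3C1 in each library (vertical axes) against the difference in median log2 deviation between long genes (6000 bp of exons or more) and the others in the same library (horizontal axes). Colours mark animals, filled circles the border zone and open squares the remote zone, and the remote zone libraries of animals 3622 and 1322 are lowest on both axes.

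The ratio of NR3C1 to NR3C2 was 2.29, 2.88 and 4.75 (lowest, median, highest) in the border zone and 1.93, 2.12 and 5.64 in the remote zone. It was higher in the border zone in 4 of 6 animals and differed by 0.08 ± 0.87 (SD) on the log2 scale (exact permutation test of sign changes over 6 animals, two-sided p = 0.812, adjusted p = 0.812 over 4 ratios). Animals 1322 and 3622 were the exceptions, at -1.03 and -0.91.

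HSD11B1, the enzyme that regenerates active cortisol, was higher in the border zone of most animals without passing the test. The gene lies at chr9:133231451-133278396 on the minus strand. Its levels were 7.11, 13.4 and 15.0 CPM (lowest, median, highest) in the border zone. The corresponding remote zone levels were 5.98, 9.66 and 13.3 CPM. The regions overlapped, with animals 1323, 3622, 1922 and 1022 highest in the border zone, between 12.5 and 15.0 CPM.

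HSD11B1 was higher in the border zone in 5 of 6 animals, by 1.05 in log2 CPM in animal 1022 and 0.80 in animal 1922, and lower by 0.70 in animal 1322. Its log2 fold change was 0.31 (SE 0.24, 95% interval -0.21 to 0.82, adjusted p = 0.448 by edgeR). It stayed above 0 in every alternative, from 0.18 to 0.62, and did not pass the threshold in any of them, with adjusted p from 0.116 to 0.775.

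HSD11B2, the inactivating enzyme that protects the mineralocorticoid receptor in kidney, was low, at 0.438 to 1.94 CPM in the border zone and 0.0520 to 1.16 CPM in the remote zone. Its log2 fold change was 0.98 (SE 0.58, adjusted p = 0.303 by edgeR). The log2 ratio of HSD11B1 to HSD11B2 differed by -0.75 ± 1.43 (SD) and was lower in the border zone in 3 of 6 animals (exact permutation test of sign changes over 6 animals, two-sided p = 0.312, adjusted p = 0.62). Animal 1922 alone differed by -3.11, on 1 HSD11B2 count in its remote zone library, which is below the limit of 3 counts, so that its value depends on the prior count of 2 added before the log. Without animal 1922 the mean difference of the ratio was -0.27, and the log2 fold change of HSD11B2 was 0.41.

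**Figure D4:**
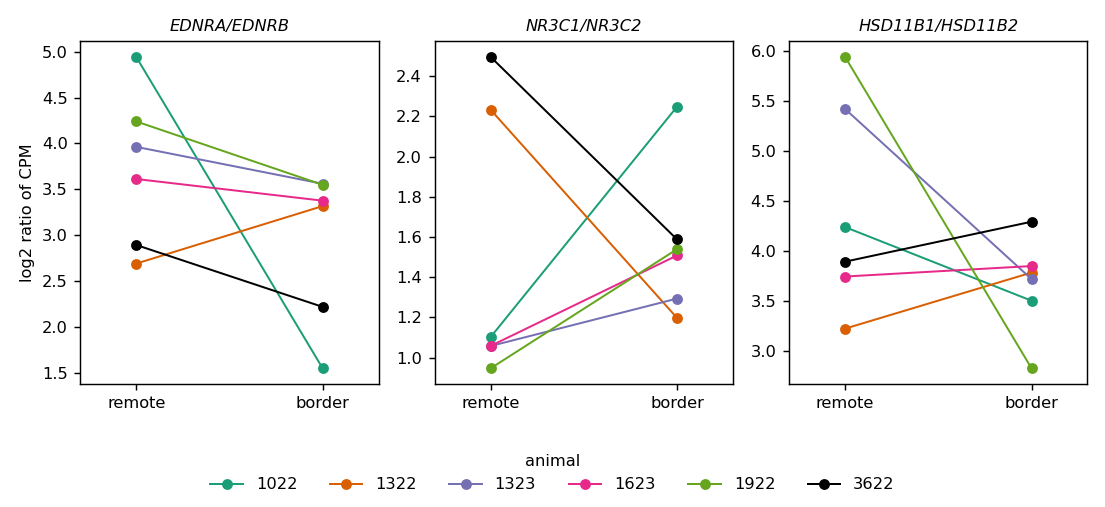
Log2 ratio of CPM within each library for 3 pairs of genes, each panel with its own axis range, with 1 line per animal joining the remote zone to the border zone. The EDNRA to EDNRB ratio is lower in the border zone in 5 of 6 animals and animal 1022 has the steepest line, while the NR3C1 to NR3C2 lines of animals 1322 and 3622 go against those of the other 4.

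The other genes of these systems were taken from 6 lists, with 61 tested genes beyond the members. None had an adjusted p under 0.05 by edgeR (0 of 61, beside 2.07% of all genes), 19 had an unadjusted p under 0.05 (beside 24.7%), and the DESeq2 Wald test called 4 (beside 10.2%). Of angiotensin peptide processing, 13 of 17 genes were tested, 4 had an unadjusted p under 0.05, all with higher levels in the border zone, and the median log2 fold change was 0.27.

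ANPEP, an aminopeptidase that trims angiotensin peptides, had the largest log2 fold change of the lists at 5.26 (SE 1.31, adjusted p = 0.0509 by edgeR). Its level ran from 0.195 to 108.5 CPM in border zone libraries, with a median of 2.56, and from 0.201 to 1.26 CPM in remote zone libraries. It was higher in 5 of 6 animals. The border zone library of animal 1022 carried the size of this value, since the next highest level was 6.32 CPM. The log2 fold change of ANPEP was 2.27 without animal 1022 (adjusted p = 0.157) and 3.07 with the replicate block (adjusted p = 0.0959), while without animal 1322 it passed the threshold at 5.39 (adjusted p = 0.0461). RNPEP, a related aminopeptidase, was higher in 6 of 6, and its log2 fold change was 1.39 (SE 0.40, adjusted p = 0.0788). It was the gene of this list that DESeq2 called, which gave no adjusted p for ANPEP, and without animal 1022 its value was 0.77 (adjusted p = 0.192 by edgeR). DPP3 and PRCP, which also degrade angiotensin peptides, were at 0.52 and 0.61 on the log2 scale (adjusted p = 0.156 and 0.158 by edgeR), and PRCP was at 0.32 without animal 1022.

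Of angiotensin and endothelin receptor signalling, 17 of 21 genes were tested, 5 had an unadjusted p under 0.05, all higher, beside 24.7% of all genes, most of them higher as well, and the median log2 fold change was 0.44. PLCB1, a phospholipase C driven by Gq-coupled receptors, was at 7.69 to 19.3 CPM in the border zone and 4.20 to 8.02 CPM in the remote zone. It was higher in 6 of 6 animals, and its log2 fold change was 0.92 (SE 0.23, adjusted p = 0.0509 by edgeR), and was called by DESeq2. With 1 animal left out in turn, its adjusted p by edgeR ranged from 0.0475 (without animal 1322) to 0.189 (without animal 1323), and it was 0.0925 with the replicate block. RGS2, which limits Gq signalling, NOX4, a superoxide- and peroxide-forming oxidase, and CYBA, its p22phox partner, were at 1.21, 0.72 and 1.28 on the log2 scale (adjusted p = 0.118, 0.137 and 0.152 by edgeR). Without animal 1022 these values were 0.67, 0.35 and 0.36. The fifth gene, ARRB1, an arrestin that ends receptor signalling, is named after its value was seen and was at 0.67 (SE 0.30, adjusted p = 0.189).

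Genes of steroid synthesis had few counts. Of 7 genes, 2 were tested, HSD11B2 and H6PD, the latter supplying the NADPH that HSD11B1 uses, with a log2 fold change of 0.07. STAR (83 counts), CYP11A1 (34) and CYP21A2 (2 counts in all) were under the filter. Of the 11 receptor chaperones and cofactors, all tested, 1 was higher and 1 lower at an unadjusted p under 0.05, beside 24.7% of all genes, with a median of 0.00 on the log2 scale.

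FKBP4 and STIP1, co-chaperones of HSP90 in steroid receptor complexes, were lower in the border zone in 6 of 6 animals, at -0.54 and -0.40 on the log2 scale (adjusted p = 0.15 and 0.208 by edgeR). Their levels were 86.0 to 230.2 CPM and 80.3 to 181.6 CPM in the border zone, against 217.6 to 260.7 CPM and 166.2 to 206.9 CPM in the remote zone. PTGES3, the p23 co-chaperone, was at -0.27 (adjusted p = 0.310).

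Of the corticosteroid response genes, 17 of 18 were tested, 5 were higher and 1 lower at an unadjusted p under 0.05, beside 24.7% of all genes, most of them higher, and the median log2 fold change was -0.15, with 8 values above 0 and 9 below. SCNN1A, a subunit of the epithelial sodium channel, was at 0.438 to 4.83 CPM in the border zone and 0.0520 to 0.669 CPM in the remote zone. It was higher in 6 of 6 animals, and its log2 fold change was 2.39 (SE 0.66, adjusted p = 0.0674 by edgeR). Remote zone libraries held only 1 to 10 counts of SCNN1A, and the 1 count of animal 1922 is below the limit of 3 counts. Its highest level came from the border zone library of animal 3622, which listed 28024 genes, and the next highest was 1.82 CPM. Without that border zone library its log2 fold change was 1.68 (adjusted p = 0.119 by edgeR). LCN2, a lipocalin released by myeloid and injured cells, and SGK1, a kinase that acts on sodium transport, were at 0.94 and 0.80 (adjusted p = 0.0795 and 0.121). SCNN1A and LCN2 were called by DESeq2, and CEBPD, an acute-phase transcription factor, was at 1.13 (adjusted p = 0.126). Without animal 1022 SGK1 was at 0.39 and CEBPD at 0.75.

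The other genes of this list with an unadjusted p under 0.05 are named after their values were seen. KLF15, a glucocorticoid-induced transcription factor of heart muscle, was the lower one, at 6.61 to 26.0 CPM in the border zone and 12.0 to 42.5 CPM in the remote zone. It was lower in 6 of 6 animals, with a value of -0.74 (SE 0.34, adjusted p = 0.192 by edgeR). ERRFI1, a feedback inhibitor of the EGF receptor, was higher in 6 of 6 animals, at 0.99 (SE 0.38, adjusted p = 0.141).

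**Figure D5:**
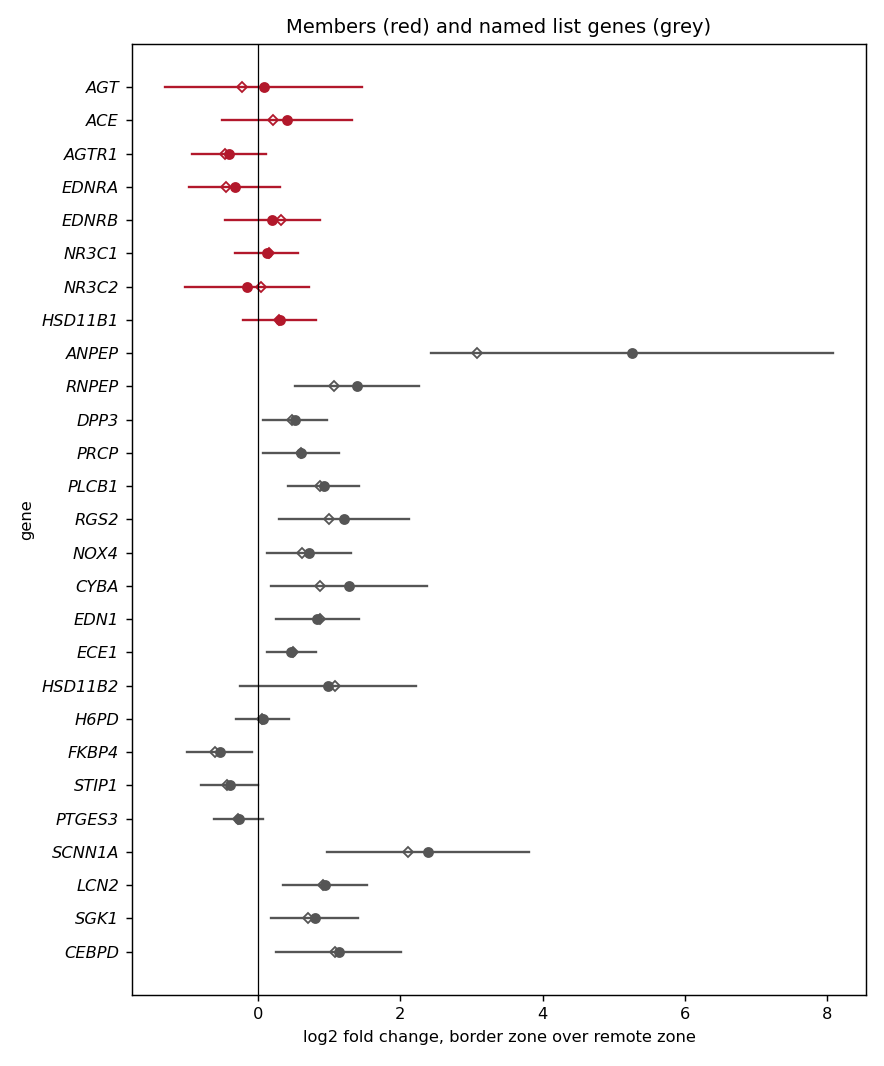
Log2 fold change of border zone over remote zone with its 95% interval from edgeR for the 8 members tested (red) and 19 genes of the lists (grey). Filled points are from the fit with region alone and open diamonds from the fit with the animal as a replicate block. All 8 red intervals include 0, and ANPEP lies farthest to the right at 5.26.

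The members were also set beside the genes with a symbol whose centred log2 CPM lay nearest to theirs over the 12 libraries, measured as a root mean square difference. NR3C1 was nearest to SF3B3, at 0.08, and to SCAF11, at 0.11. AGTR1 was nearest to PPP1R13B (0.11) and PKP4 (0.16), EDNRA to MGLL (0.13) and PLEKHM3 (0.17), and UBR2 (0.19) was among the 2 nearest to NR3C2. Those of HSD11B1 were GABBR1 and DDX5, each at 0.22, those of EDNRB were CHST15 (0.23) and CARD10 (0.25), and those of ACE were RNF39 (0.30) and ITPRIPL1 (0.36). AGT had no gene closer than ATP1B2 at 0.74 and BAIAP2L1 at 0.76, against its own root mean square spread of 1.17.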

How the data were processed

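Nondirectional poly(A) libraries, 1 per region and pig, were sequenced from paired ends. The values deposited by the authors are unnormalized counts, obtained by STAR 2.7.10a alignment to Sscrofa11.1, genes of Ensembl release 113, and featureCounts 2.16.1. Options for reads that match several genes are not given in the sources used here.

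The counts were tested with edgeR 4.0.16 under R 4.3.3 (filterByExpr, TMM factors, robust quasi-likelihood test, region as the only term, Benjamini-Hochberg adjustment over 13844 genes) and, as an alternative, DESeq2 1.42.0. Ratios were compared by exact permutation of signs over animals in Python 3.11.15. The same test of AGTR2 had too few counts to be informative. The SE was taken as the log2 fold change over the root of F. Log2 CPM used a prior count of 2. Exon lengths and positions came from the RefSeq annotation of Sscrofa11.1. A table of names paired 15623 of the 35682 identifiers. The list genes AGTRAP, MAS1, RGS3, CYBB, CMA1, CPA3, EDN3, CYP11B1, CYP11B2 and MT2A and the cardiomyocyte markers MYH7 and TTN had no identifier by it and were not analysed here.

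The members and lists were chosen with earlier results of these data known. The genes named are the 9 members, list genes with an adjusted p under 0.05 or up to 4 per list with the smallest p, HSD11B2 and EDN1, and the 2 nearest genes of each member. List genes under the filter, and those the text marks so, were named beyond this rule after their values were seen. Some genes that this rule selects are not reported here. Libraries with the same number are from the same animal. They were paired for this reason in the within-animal differences, the ratio tests and the replicate block. The main edgeR fit and the DESeq2 test did not use the pairing. Across genes, which are not independent replicates, r between the deviations of an animal's border zone and remote zone libraries averaged 0.35, was lowest in animal 1022 (-0.03) and highest in animal 1323 (0.57), and exceeded 0.1 in 4 of 6. The labels name separate animals as replicates. The fits were tested on simulated data with known changes. Alternatives were the replicate block, other scalings and filters, no mitochondrial genes, each animal left out and single libraries left out. Leaving out the remote zone libraries of animals 1322 and 3622 was added after seeing the data. Counts do not separate PCR copies from molecules, so limits from counts cover counting error only.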

Additional observations from a re-analysis of the deposited data

How the results depend on the processing

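None of the 8 members passed an adjusted p of 0.05 by edgeR or DESeq2 in any alternative. At an unadjusted p under 0.05, 1 of 8 passed with library totals, beside 4019 of all 13844 genes tested. Without animal 1922, 1 of 8 passed, beside 3104 of 14008 genes. Without the remote zone libraries of animals 1322 and 3622, 2 of 8 passed, beside 2895 of 14365 genes. The log2 fold changes of the members kept their direction in 119 of 128 comparisons with an alternative. The exceptions were AGT, at -0.22 with the replicate block (adjusted p = 0.809) and between -0.76 (without animal 1922) and 0.60 (without animal 3622) with 1 animal left out, ACE, between -0.21 (without animal 1022) and 0.77 (without animal 1322) and at -0.08 without the border zone library of animal 1022, and NR3C2, at 0.044 with the replicate block, 0.026 with library totals and between -0.35 (without animal 1322) and 0.067 (without animal 1022) with 1 animal left out. NR3C1 was at -0.12 without the remote zone libraries of animals 1322 and 3622. H6PD was at -0.044 without the same libraries, -0.022 without the border zone library of animal 1022 and 0.14 without that of animal 3622. With 1 animal left out, the ratio of NR3C1 to NR3C2 ranged from -0.13 to 0.30 and AGTR2 from -0.096 to 0.075, and AGTR2 was at 0.00057 with a pseudocount of 0.5. The replicate block changed no call of a member or a listed gene. Of the 61 listed genes, DESeq2 called 4 (RNPEP, PLCB1, SCNN1A and LCN2), library totals 12, EDN1 and ECE1 among them, and leaving out 1 animal between 0 and 2, the latter (ANPEP and PLCB1) without animal 1322. The median over all genes, 0.04 on the log2 scale, was 0.32 under library totals and 0.35 by DESeq2, which tested other genes. Over all genes 287 were called, 41 with the block, 1551 with library totals, 1719 by DESeq2, 139 with no filter, 149 with at least 10 counts in every library, and between 0 (without animal 1623 or 3622) and 519 (without animal 1322) with 1 animal left out. With 6 animals, sign permutations cannot give a p below 0.03125, and with 5 not below 0.0625. The cause of these changes was not tested.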
